A study of Homo sapiens with 4 samples.

Results

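The open chromatin of AMO1, an established multiple myeloma (plasma cell tumour) line, was described from 2 libraries made without the PHF19 vector. Both were ATAC-seq libraries, made by letting the transposase Tn5 insert sequencing adapters wherever DNA is accessible. Of the 4 libraries in the series, the AMO1 library and a library whose name carries the prefix IFN both came from cells that had received the empty PCDH vector, with genotype WT in the labels. The labels do not explain the prefix and list no interferon treatment, so the latter is called the IFN-prefixed library. The other 2 libraries carried the PHF19 vector and were used only to count regions over the series. There was 1 library of each kind, so no test between libraries was possible and every statement below describes these 2 libraries. Overlapping peaks of both lists on chromosomes 1 to 22 were merged into 68958 regions, and the 46460 regions with a peak in both libraries are the shared regions described here. Merging the lists of all 4 libraries gave 71853 regions. The peak lists rest on 27.4 M fragments in the empty vector library and 65.9 M in the IFN-prefixed library, and 983 and 21515 regions were found only in the former and only in the latter. Height means the largest pileup of fragments in a region per 1000000 fragments of the library (per M), averaged over both libraries.

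Plasma cells are the antibody-secreting end stage of the B lineage. IRF4, PRDM1 (BLIMP-1) and XBP1 are transcription factors that drive this stage, XBP1 by enlarging the secretory pathway, while PRDM1 represses B cell factors such as PAX5. SDC1 (CD138) and TNFRSF17 (BCMA) are the surface proteins by which normal and malignant plasma cells are recognised. ATAC-seq reads promoters and enhancers alike, as stretches where nucleosomes leave the DNA accessible, and does not measure transcription.

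All 5 of these markers had a shared region at a gene start. A gene start is here within 1000 bp of a start listed by RefSeq, or of either end of the gene where no start was listed. The table of starts covered 15101 of 19126 protein-coding genes, and TNFRSF17, POU2AF1, MCL1, CD3E and COL1A1 are among the 4025 without an entry, so that for them a region may lie at the end of transcription.

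The DNA just before the start shows the range of sequence that was open or closed. The 250 bases before 1 start each of 9 genes are given 5′ to 3′ on the strand of the gene, from RefSeq on GRCh38.p14. LAPTM4A and SDC1 carry the tallest regions, IRF4, PRDM1 and XBP1 are the plasma cell regulators, and PDIA4 has the tallest region of the secretory list. PAX5 (B cell), ALB (liver) and CD163 (macrophage) had no peak of either library over these bases. Capitals mark matches, on either strand, to any of 9 short motifs: the CCAAT box (CCAAT), the GC box (GGGCGG), an ETS site (CCGGAAG), the cyclic AMP element (TGACGTCA), the octamer (ATGCAAAT), an XBP1 element (TGACGTGG), the TATA box (TATAAA), an E-box (CAGCTG) and a pair of IRF core sites (2 copies of GAAA spaced by 2 bases).
LAPTM4A: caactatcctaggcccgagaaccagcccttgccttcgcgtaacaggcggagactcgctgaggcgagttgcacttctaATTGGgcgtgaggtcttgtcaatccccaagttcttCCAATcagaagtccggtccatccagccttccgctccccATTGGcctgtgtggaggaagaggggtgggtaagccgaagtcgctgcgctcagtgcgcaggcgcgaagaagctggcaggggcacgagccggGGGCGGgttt
SDC1: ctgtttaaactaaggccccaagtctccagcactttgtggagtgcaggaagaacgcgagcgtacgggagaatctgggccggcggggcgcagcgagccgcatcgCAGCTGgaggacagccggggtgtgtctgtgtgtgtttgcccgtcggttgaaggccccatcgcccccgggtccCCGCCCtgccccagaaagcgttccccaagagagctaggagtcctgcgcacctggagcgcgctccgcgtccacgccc
IRF4: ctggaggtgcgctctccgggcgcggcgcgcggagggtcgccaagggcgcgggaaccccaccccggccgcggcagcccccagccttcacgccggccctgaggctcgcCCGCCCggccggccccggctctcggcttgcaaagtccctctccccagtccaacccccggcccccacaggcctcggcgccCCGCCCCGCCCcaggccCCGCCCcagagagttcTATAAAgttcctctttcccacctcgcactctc
PRDM1: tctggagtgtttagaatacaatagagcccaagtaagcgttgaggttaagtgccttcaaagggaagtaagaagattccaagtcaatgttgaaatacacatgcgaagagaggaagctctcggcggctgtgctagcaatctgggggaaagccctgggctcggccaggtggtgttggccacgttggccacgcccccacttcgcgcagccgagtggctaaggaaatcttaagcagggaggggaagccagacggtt
XBP1: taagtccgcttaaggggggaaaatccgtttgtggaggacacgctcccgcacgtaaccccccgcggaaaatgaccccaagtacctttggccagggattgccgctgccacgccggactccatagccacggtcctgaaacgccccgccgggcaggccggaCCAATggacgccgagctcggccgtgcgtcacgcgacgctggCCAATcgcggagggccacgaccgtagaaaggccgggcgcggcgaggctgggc
PDIA4: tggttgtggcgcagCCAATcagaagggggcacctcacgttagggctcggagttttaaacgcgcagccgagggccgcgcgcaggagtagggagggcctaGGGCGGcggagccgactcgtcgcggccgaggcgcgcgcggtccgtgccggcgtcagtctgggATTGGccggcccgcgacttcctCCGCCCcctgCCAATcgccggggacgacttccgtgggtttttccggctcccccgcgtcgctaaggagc
PAX5: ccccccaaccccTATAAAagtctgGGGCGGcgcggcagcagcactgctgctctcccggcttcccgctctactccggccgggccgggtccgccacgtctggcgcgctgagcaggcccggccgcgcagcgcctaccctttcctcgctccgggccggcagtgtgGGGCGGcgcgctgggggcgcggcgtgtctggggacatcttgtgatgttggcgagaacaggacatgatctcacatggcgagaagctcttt
ALB: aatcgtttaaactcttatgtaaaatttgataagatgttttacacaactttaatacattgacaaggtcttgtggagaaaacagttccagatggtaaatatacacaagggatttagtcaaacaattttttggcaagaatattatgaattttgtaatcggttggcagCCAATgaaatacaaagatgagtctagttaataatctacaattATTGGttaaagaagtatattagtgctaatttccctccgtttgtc
CD163: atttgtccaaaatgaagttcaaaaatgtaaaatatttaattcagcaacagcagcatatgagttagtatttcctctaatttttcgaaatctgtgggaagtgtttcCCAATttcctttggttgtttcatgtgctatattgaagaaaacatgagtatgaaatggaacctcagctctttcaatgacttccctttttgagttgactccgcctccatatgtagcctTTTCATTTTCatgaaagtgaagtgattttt

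In the order printed, these stretches are chr2:20051629-20051878 (LAPTM4A, minus strand), chr2:20225476-20225725 (SDC1, minus), chr6:391502-391751 (IRF4, plus), chr6:106086086-106086335 (PRDM1, plus), chr22:28800570-28800819 (XBP1, minus), chr7:149028491-149028740 (PDIA4, minus), chr9:37034269-37034518 (PAX5, minus), chr4:73404037-73404286 (ALB, plus) and chr12:7503778-7504027 (CD163, minus). LAPTM4A and PDIA4 each held 3 CCAAT boxes, beside 1 and 2 GC boxes. SDC1 held 1 GC box and 1 E-box. IRF4 held 4 GC boxes and a TATA box, XBP1 held 2 CCAAT boxes, and PRDM1 held none of the 9 motifs. The closed PAX5 start is as rich in G and C (69.6%) as the open XBP1 start (67.6%), with 2 GC boxes and a TATA box. The closed ALB and CD163 starts are poor in G and C, at 30.0% and 33.6%. Matches describe these letters and are not evidence of binding.

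Over all 21156 listed promoters of protein-coding genes, taken as 250 bases before to 50 bases after the start, the 12045 that overlapped a shared region had a median of 66.0% G and C, against 55.3% in the 8798 without a peak of either library. The GC box was found in 72.5% of open and 35.4% of closed promoters, and in 56.6% of all. The ETS site was found in 19.8% of open and 3.91% of closed promoters (12.9% of all). TATA boxes went the other way, with 4.84% of open and 15.8% of closed promoters (9.51% of all). The CCAAT box differed little between open and closed (35.7% and 32.6%, 34.4% of all) but much with height, from 26.7% in the lowest quartile of open promoters to 49.0% in the tallest quartile. Of the 40 listed promoters of secretory and unfolded protein response genes, 27 held a CCAAT box (67.5%) and 1 held the XBP1 element, which 0.742% of all promoters held. The cyclic AMP element was in 3.25% of open and 0.989% of closed promoters (2.31% of all). The octamer (1.47% and 1.80%, 1.62% of all), the IRF pair (2.89% and 3.55%, 3.19% of all) and the E-box (16.4% and 20.3%, 18.1% of all) were a little rarer in open than in closed promoters. Promoters of other-lineage genes that were closed had a median of 55.8% G and C (170 promoters) and those that were open 60.0% (49 promoters). Among plasma cell genes the 94 open promoters had 64.5% and 21 closed ones, alternative starts included, 44.3%.

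Most shared regions were distal and low, and most tall ones lay at gene starts. Of the 46460 regions, 11527 (24.8%) lay at a gene start, 31706 (68.2%) lay more than 5000 bp from every start of a protein-coding gene and are called distal, and 3227 (6.95%) lay in between. Gene start regions had a median height of 6.65 per M and a median length of 1400 bp, against 1.29 per M and 883 bp for distal regions. The share at gene starts was 3.59% in the lowest decile of regions by height and 75.6% in the tallest decile. Height over all shared regions had a median of 1.82 per M, a 10th percentile of 0.599 and a 90th percentile of 9.14. Only 28 regions passed 50 per M, and the tallest reached 228. The authors also deposited a fold enrichment, which sets a peak against the signal of its own surroundings. No control library was used, so these surroundings come from the same library and include the peak itself. By this fold the classes were closer, with medians of 9.30 at gene starts and 6.96 at distal regions.

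**Figure D1:**
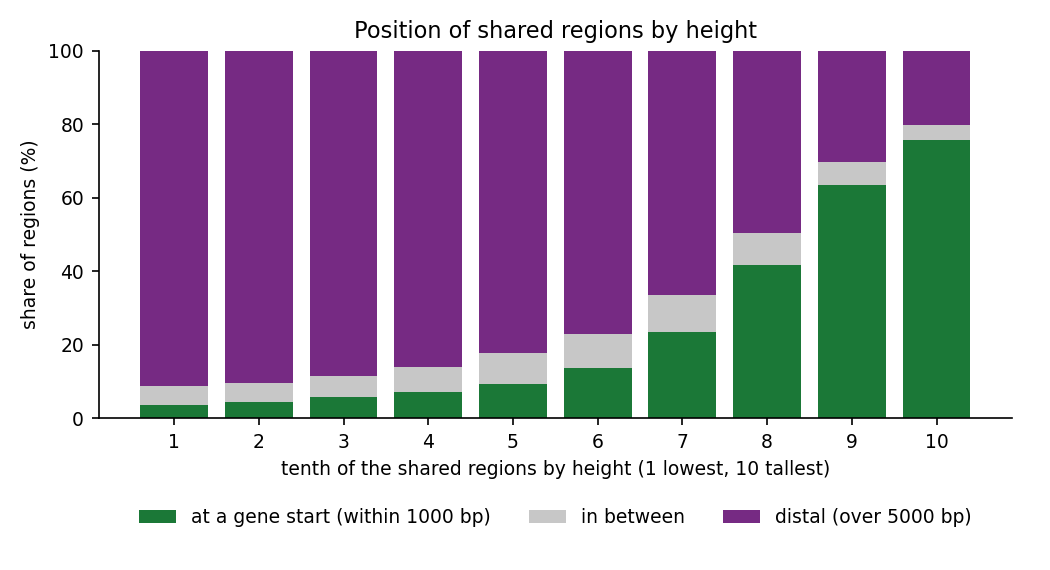
Share of the shared regions (y axis, percent) that lay at a gene start, in between or distal, in each decile of the regions by height (x axis). Gene starts make up 3.59% of the lowest decile and 75.6% of the tallest, and distal regions 91.2% and 20.3%.

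The tallest regions were concentrated in a few stretches of the genome rather than at plasma cell genes as a class. Of the 50 tallest, 20 lay on chromosome 2, 16 on chromosome 1, 9 on chromosome 11, 3 on chromosome 4 and 2 on chromosome 5. Of the 100 tallest, which reach down to 28.1 per M, 76 fell into 6 stretches when neighbours up to 2 Mb apart were joined. The first rank was the start of LAPTM4A, a lysosomal membrane protein, at chr2:20050254-20052692, with 276 per M in the empty vector library and 179 in the IFN-prefixed library. Next came the start of SDC1 at chr2:20221796-20226066, with 246 and 158 per M. The pileups behind these 2 values of SDC1 were 6744 and 10412 fragments, whose exact 95% Poisson intervals were 241 to 252 and 155 to 161 per M and cover counting error only. Ranks 3 to 10 were the start of YWHAQ, a 14-3-3 protein (130 and 85.6 per M), an SDC1 region inside the gene (114 and 87.7), and the starts of SLAIN2 (119 and 80.3), TTC32 (112 and 78.5), WDR35, an intraflagellar transport protein (104 and 77.4), RDH14 (106 and 74.2), ENSA (102 and 71.8) and ITGB1BP1 (95.01 and 62.9). In each of these 10 the value in the empty vector library was the higher. This was not particular to them, since the medians of all gene start regions were 7.31 and 5.99 per M. Distal regions went the other way, with medians of 1.24 and 1.34. There was 1 library of each kind, and they differ in depth (27.4 M and 65.9 M fragments). These values are therefore not read as a difference between the cells. Among gene starts alone the last of the first 10 was FDXACB1 on chromosome 11 (84.1 and 65.6).

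Several of the tallest regions lay close together on chromosome 2. The stretch chr2:17752755-20226066 held 14 of the 100 tallest regions, and close to SDC1 none of the 21 shared regions within 100 kb of the gene fell below 2.89 per M. Over the whole stretch, however, 125 regions had a median of 2.62 per M, against 2.202 for 116 regions in flanks of the same length. A second stretch on this chromosome, chr2:8542958-9663812, held 11 of the 100 and included the start of ID2, an inhibitor of helix-loop-helix factors, at 51.2 per M. Chromosome 1 had the largest group, 32 of the 100 between positions 144545768 and 156768281, and its 464 regions had a median of 5.58 per M against 2.72 in the flanks. MCL1, an anti-apoptotic protein on which myeloma cells depend, and CKS1B, a cell cycle gene on the chromosome arm 1q, lie in it. On chromosome 11, chr11:110429406-112026017 held 12 of the 100 and included POU2AF1, the B cell coactivator OBF-1. The median of its 73 regions was 2.80 per M, against 1.52 in the flanks. The remaining stretches lay at chr4:47913491-48780986 (4 of the 100, with SLAIN2, TEC and NFXL1 at 99.8, 73.8 and 65.1) and chr5:75336296-76739704 (3 of the 100, with the start of IQGAP2 at 34.2). Height grows with the number of copies of a stretch as well as with its accessibility, and the 2 cannot be told apart in these files, since copy number was not measured.

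**Figure D2:**
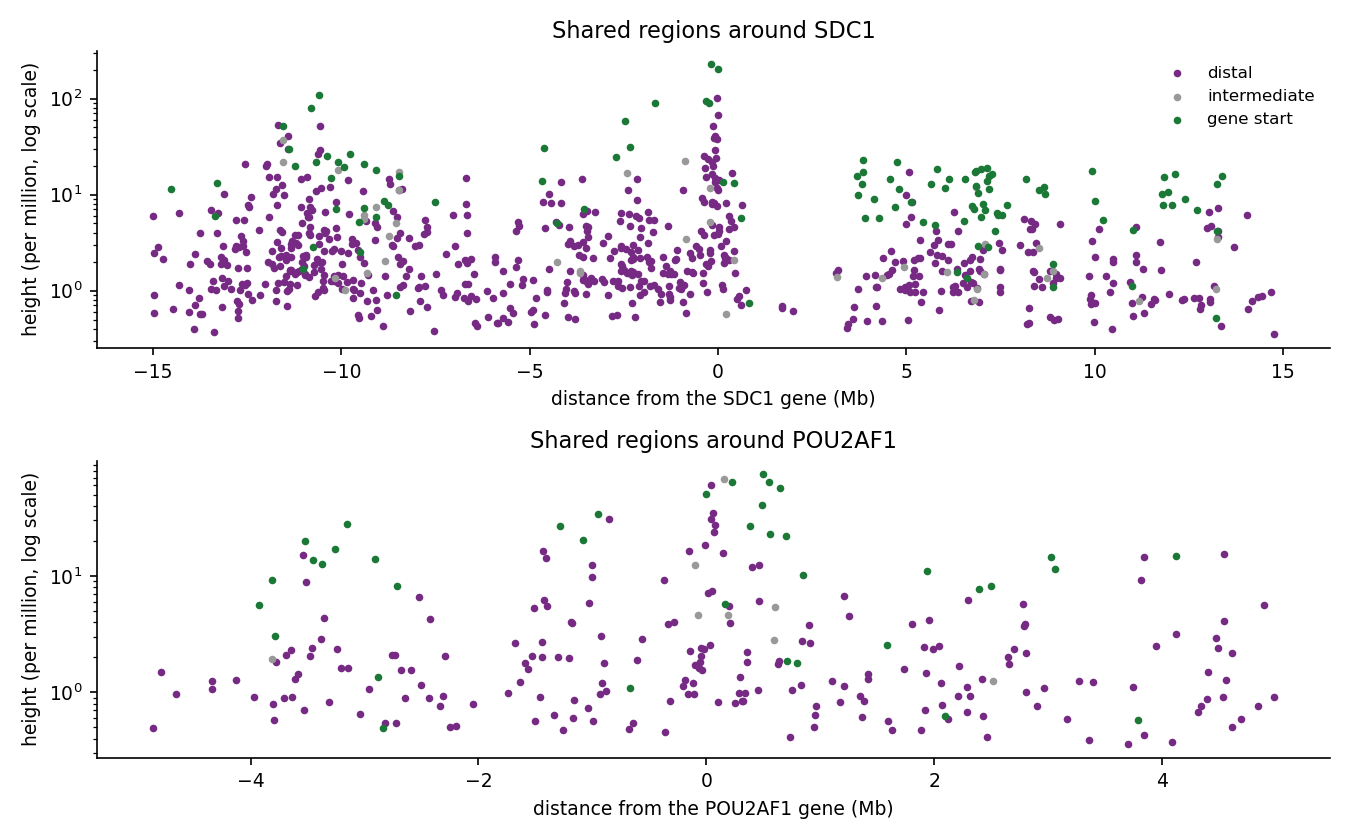
Height of each shared region (y axis, log scale) against its distance from SDC1 on chromosome 2 (upper panel) and from POU2AF1 on chromosome 11 (lower panel), coloured by class. The tallest regions of the upper panel, up to 228 per M, crowd next to SDC1, and a second group with YWHAQ at 108 per M lies 10 to 12 Mb from it.

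Ranking by the authors' deposited fold enrichment instead kept none of the 50 tallest regions among the first 50. That fold is relative to signal within 10000 bp, the peak included. The 100 tallest regions had a median fold of 10.1, against 7.41 over all shared regions. The start of SDC1 was enriched 6.23-fold and 5.31-fold, less than the start of LAPTM4A (10.6 and 9.59). These SDC1 values were also below the medians of gene start regions (9.45 and 9.10) and of all shared regions (7.09 and 7.74). The SDC1 start region is 4271 bp long with 3 summits in each library, against a median length of 1400 bp at gene starts. It therefore takes up much of the 10000 bp that serve as its background. Whether its length accounts for the low fold was not tested. Dividing height by the median height within 2.5 Mb kept 30 of the 50, and LAPTM4A (91.8 times its local median), SDC1 (77.7 times) and SLAIN2 (63.8 times) then led.

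The listed plasma cell genes were open at their starts almost without exception. The lists were chosen with earlier results of these data known, so their shares describe the lists and are no test of the class. Of 92 genes in 4 plasma cell lists, 89 had a shared region at a start (96.7%), beside 12134 of all 19126 protein-coding genes (63.4%) and all 23 housekeeping genes used. The tallest start region of these 89 genes had a median height of 9.30 per M, against 7.31 over all open genes and 9.51 over housekeeping genes. Above the median of all open genes were 59 of the 89. Without the 5 genes in the tall stretches (SDC1, POU2AF1, MCL1, CKS1B and IL6R) the median was 8.85 per M.

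All 20 transcription factors were open. POU2AF1 led with 53.2 per M in the empty vector library and 47.4 in the IFN-prefixed library. CREB3L2, a membrane-bound factor of the secretory programme, followed with 19.3 and 16.7. IRF4 had 18.9 and 13.2 per M at chr6:389575-392844, a region of 3270 bp at percentile 98.2 of all shared regions and 93.2 of all open genes by height. ELL2, an elongation factor needed for secreted immunoglobulin mRNA, had 17.0 and 14.4, in a region that also lies at an end of CAST, and ZBTB20 had 15.1 and 13.6. PRDM1 and XBP1 were not in that leading group. PRDM1 reached 9.83 and 9.33 per M and XBP1 9.06 and 6.93, at percentiles 68.8 and 55.9 of all open genes. BHLHA15 (MIST1), a secretory cell factor, was low, with 3.73 and 2.87. The lowest of the list was ZNF215, with 1.57 and 1.68.

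Of 23 surface genes, 21 were open. SDC1 stood alone at 246 and 158 per M. IL6ST, the signalling chain of the IL-6 receptor, had 18.2 and 13.5, the integrin ITGA4 16.6 and 13.9, the adhesion protein CADM1 16.4 and 13.4 and CD38 11.3 and 9.24. TNFRSF17 had 11.2 and 8.95 per M at chr16:11963844-11965897. Other antibody or cell therapy targets were low: SLAMF7 had 2.996 and 2.87, FCRL5 1.68 and 1.502, and GPRC5D only 0.914 and 0.986 per M. CD27, a memory B and plasma cell receptor, had no region at its listed start but 2 shared regions in the gene, up to 5.91 per M. SLAMF1 had a start region in 1 library only.

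The secretory and unfolded protein response genes had the highest median of the lists. All 34 were open, with a median of 12.2 per M and a range of 1.45 to 24.2, and 27 stood above the median of open genes. The disulfide isomerases PDIA4 (26.6 and 21.7 per M) and PDIA6 (23.2 and 18.9) led. EIF2AK3, the stress sensor kinase PERK, had 21.6 and 17.8. The chaperone partner DNAJB9 had 20.7 and 16.9, in a region it shares with THAP5, and the lectin chaperone CANX 18.9 and 14.1. The major chaperone HSPA5 (BiP) had 16.8 and 13.8. JCHAIN, which joins IgA and IgM units, was the lowest, with 1.28 and 1.62 per M. No gene of this list lay in the tall stretches.

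Of 15 myeloma oncogenes, 14 were open. CKS1B (40.7 and 30.1 per M, a region shared with SHC1) and MCL1 (39.7 and 28.8) led, and both lie in the tall stretch of chromosome 1. BCL2L1 had 16.0 and 11.8, CDK6 13.1 and 9.50, and CCND2 12.02 and 9.45. MYC had 6.39 and 6.28 and CCND1 5.01 and 3.67. FGFR3, which immunoglobulin translocations activate in some patients, was low, with 2.27 and 1.38 per M. MAF had a start region in 1 library only, and shared regions in its body up to 1.11 per M.

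**Figure D3:**
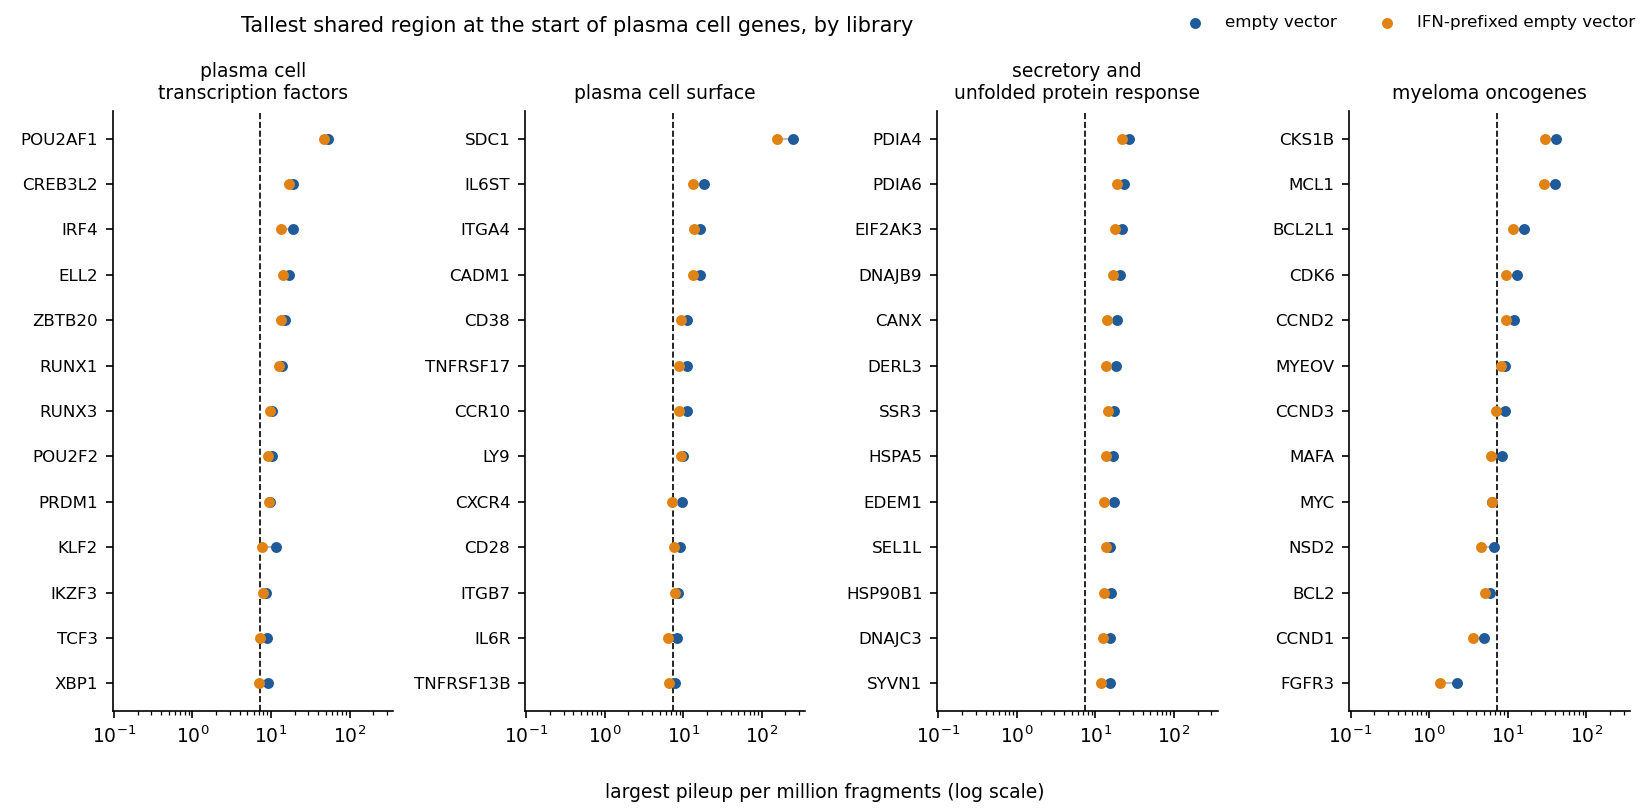
Largest pileup per M fragments (x axis, log scale) in the tallest shared region at the start of each open plasma cell gene (y axis), with 1 point per library. Each panel shows the 13 tallest open members of its list. The dashed line is the median height of all open genes, 7.31 per M.

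The loci of the markers differed in layout. SDC1 had 21 shared regions within 100 kb, IRF4 and PRDM1 17 each, XBP1 10 and TNFRSF17 5, beside a median of 8 and a 90th percentile of 15 over all genes. Within SDC1, regions whose summits lay 11.1 and 18.1 kb downstream of the outermost start reached 67.2 and 101 per M. Beyond the gene, summits 33.9, 89.7 and 96.1 kb downstream reached 37.6, 40.9 and 38.5. Upstream of SDC1 the tallest region reached 14.1 per M. IRF4 had a second tall region inside the gene, 8.22 kb downstream of its start, at 11.6 per M. A region 63.4 kb upstream of it, inside DUSP22, reached 14.6, close to the 16.2 of the DUSP22 start itself. Apart from a region of 6.56 per M in DUSP22, the remaining regions of the IRF4 locus were at or below 2.01 per M.

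PRDM1 was open at all 3 listed starts, and its inner starts were taller than its outermost one. The start at position 106086336 had 9.58 and the one at 106098941 6.48 per M, whereas the outermost start at 105992690 had 1.40. The tallest region of the locus was distal, at chr6:106141101-106142531, with 17.9 per M in the empty vector library and 14.7 in the IFN-prefixed library. Its summit lay 42.9 kb downstream of the innermost start. Further regions at 69.3 and 83.6 kb reached 9.68 and 6.66 per M. XBP1, by contrast, had its start as the tallest region of the locus, at 7.998 per M, and no other above 4.40, the shared start of CHEK2 and HSCB.

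**Figure D4:**
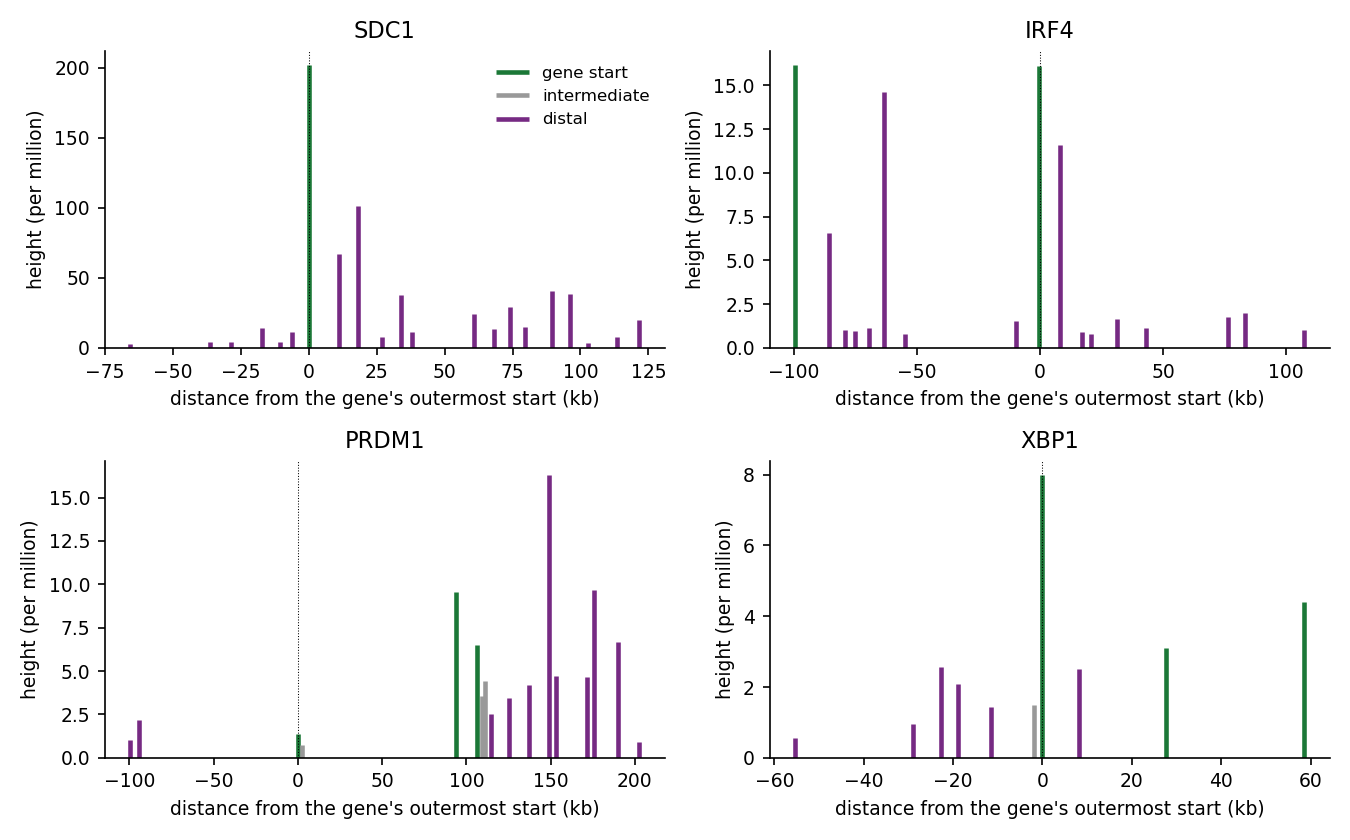
Height of each shared region (y axis, per M) against the distance of its summit from the outermost start of SDC1, IRF4, PRDM1 and XBP1 (x axis, kb, positive in the direction of transcription), coloured by class. The y axes differ: SDC1 reaches 202 and XBP1 7.998 per M, and the tallest bar of PRDM1 is distal.

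The listed genes of other lineages were open less often and lower, though many had a region. These lists too were chosen with earlier results of these data known. Of 232 genes in 11 lists, 89 had a shared region at a start (38.4%), with a median height of 2.36 per M, and 18 of the 89 stood above the median of open genes. No peak of either library lay within 5000 bp of 43 of these genes (18.5%), beside 2749 of all genes (14.4%) and none of the plasma cell and housekeeping genes. By the authors' deposited fold enrichment, open genes of other lineages (median 7.45) and open plasma cell genes (8.01) were close. The background of that fold includes the peak itself. Their closeness does not remove the difference in height, with medians of 2.36 and 9.30 per M. Counting only the taller regions, above the median height, left 57 of the 232 open (24.6%), beside 84 of the 92 plasma cell genes (91.3%) and 11006 of all 19126 genes (57.5%). Without that limit on height, 56 of the 142 other-lineage genes with listed starts were open (39.4%). Of the 90 matched at either end, 33 were open (36.7%). Over all genes these shares were 65.8% and 54.7%.

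**Figure D5:**
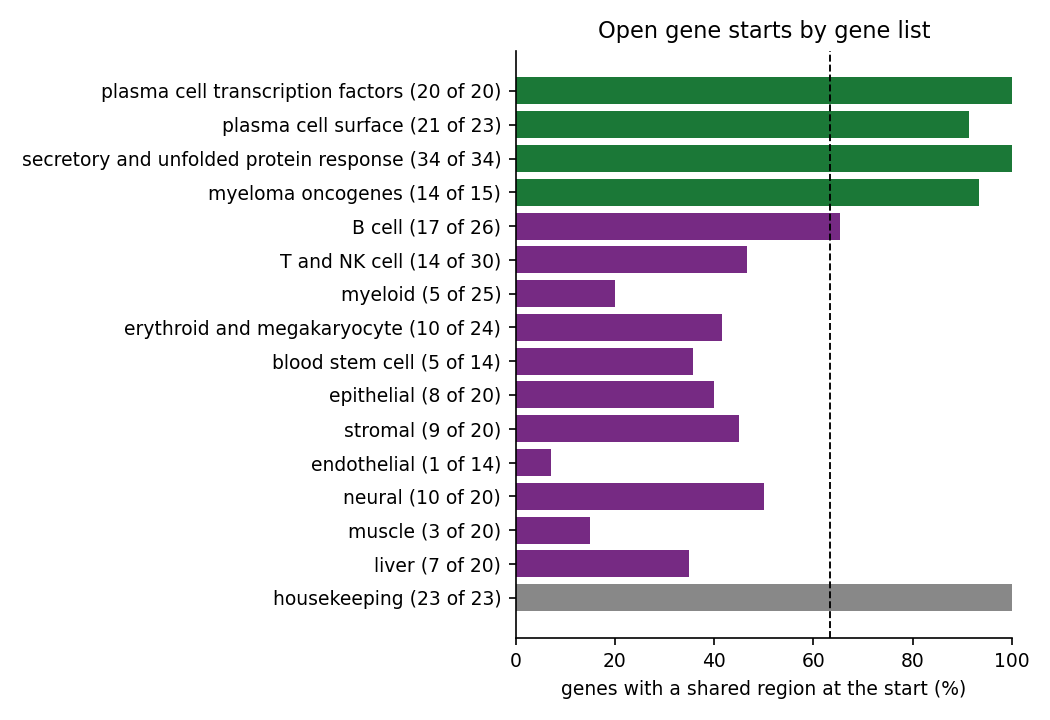
Share of the genes of each list with a shared region at a start (x axis, percent), with the counts beside each name. The dashed line is the 63.4% of all protein-coding genes. The 4 plasma cell lists (green) and the housekeeping genes (grey) lie at or above 91.3%, and the other lineages (purple) between 7.14% and 65.4%.

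The B cell list was split. Its share, 17 of 26 (65.4%), was near that of all genes, but the median of the 17 was 2.31 per M and only 3 stood above the median of open genes. These were MYBL1, a germinal centre factor (13.9 and 10.1 per M), CD72 (9.25 and 7.65), and CIITA, the MHC class II activator (7.82 and 7.03, a region shared with DEXI). BACH2, which restrains plasma cell differentiation, was just below it (7.67 and 6.36). MS4A1 (CD20) had no peak within 5000 bp. PAX5 had no region at a start but 5 shared regions in its body, up to 7.70 per M. CD22, CD79A, FCER2 and VPREB3 were also without a region at the start.

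Among T and NK cell genes 14 of 30 were open. CD3E, a chain of the T cell receptor complex, stood out with 12.5 and 12.1 per M at 1 end of the gene, while CD3D and CD3G had none at a start. The factors TBX21 (7.60 and 6.63) and EOMES (7.60 and 6.18) and the co-receptor CD8A (6.91 and 5.77) followed. CD8B and the cytotoxic genes GZMB and PRF1 had no peak within 5000 bp, which makes 3 of 30 (10.0%), a smaller share than over all genes (14.4%). CD247, the zeta chain, was closed at its starts with 6 shared regions in its body, up to 12.2 per M. Of 25 myeloid genes 5 were open, namely ITGAX (8.66 and 6.31), SPI1 (3.40 and 3.03), CLEC7A (2.63 and 3.13), CEBPD (3.07 and 2.38, a region it shares with SPIDR) and S100A8 (0.585 and 0.561, in the tall stretch of chromosome 1). Only 1 of the 18 myeloid genes with listed starts was open, against 4 of the 7 matched at either end. For those 4 the region may lie at the end of transcription. CEBPA, CD33, CD163, LYZ, FCN1 and S100A12 had no peak within 5000 bp.

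Of 24 erythroid and megakaryocyte genes 10 were open, the tallest being ALAS1 (4.97 and 4.43), a haem synthesis enzyme most cells use, then GFI1B (4.68 and 4.20), ITGB3 (4.90 and 3.28) and GP1BA (3.51 and 2.88). HBG2, SLC4A1, AHSP, PF4, PPBP and TAL1 had no peak within 5000 bp. HBA1 and HBA2 are near-identical copies whose reads cannot be assigned with certainty. EPOR was closed at its start with a region of 18.7 per M in its body. Of 14 stem cell genes 5 were open, and MECOM (14.7 and 11.1) and MEIS1 (11.3 and 9.32) were as tall as plasma cell genes. SPINK2 (1.90 and 1.47) and FLT3 (1.75 and 1.26) were low, and KIT had no peak within 5000 bp.

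Outside blood, MUC1, a mucin also carried by plasma cells (20.2 and 14.6), and ELF3 (15.3 and 13.2) were the tallest of 8 open epithelial genes of 20. MUC1 lies in the tall stretch of chromosome 1. They were followed by TP63 (7.49 and 6.22) and ESRP1 (2.45 and 2.69). KRT19 and CDX2 had no peak within 5000 bp. CDH1 (E-cadherin) was closed at its start with 6 regions in its body, up to 13.3 per M. Of 20 stromal genes 9 were open, led by LEPR (12.1 and 10.6, shared with LEPROT), COL1A1 (9.46 and 7.68), ACTA2 (8.33 and 6.93, shared with FAS) and RUNX2 (6.10 and 4.78), which is also on the plasma cell list. TWIST1, POSTN and THY1 had no peak within 5000 bp. The neural list had 10 of 20 open, with ELAVL3 (12.8 and 7.94), SLC17A7 (10.9 and 9.27), SYT1 (9.72 and 8.74) and TUBB3 (9.25 and 7.12) tallest, and PAX6, OLIG2 and ELAVL4 without a peak within 5000 bp. Of 14 endothelial genes only ESAM was open (4.82 and 3.58), a gene without a listed start that was matched at either end. The count was 2 by the IFN-prefixed library alone, which also had a peak at the start of CLDN5, and 3 with a window of 2000 bp. KDR, TIE1, SOX17, EMCN and ROBO4 had no peak within 5000 bp. The muscle list had 3 of 20 open, namely MYOG (1.53 and 1.58), TNNT2 (0.877 and 1.46) and NKX2-5 (0.731 and 0.516), and MYOD1, MYF5, ACTC1, MYH7, HAND2 and DES had no peak within 5000 bp. Of 20 liver genes 7 were open, with TF (9.03 and 7.71), APOA1 (8.37 and 7.40) and CPS1 (6.80 and 6.16) tallest and ONECUT1 at 2.05 and 1.94. The TF and CPS1 regions also lie at starts of TOPBP1 and LANCL1. ALB, TTR, SERPINA1, FGA and CYP3A4 had no peak within 5000 bp. Over the 11 lists, 54 of the 143 genes without a shared start region had 1 or more in their bodies (37.8%), beside 2386 of 6992 such genes among all protein-coding genes (34.1%) and all 3 such plasma cell genes (CD27, SLAMF1 and MAF).

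Distal regions, among which enhancers are found, lay a median of 39.6 kb from the nearest protein-coding start, with 13746 of 31706 beyond 50 kb and 1131 beyond 500 kb. Of these distal regions 47.4% lay inside a gene and 1165 within 1000 bp of the start of a non-coding gene. Height fell slowly with distance, from a median of 1.47 per M between 5 and 20 kb to 0.959 beyond 500 kb. Among the 1000 tallest distal regions, 11.8% lay at a non-coding start, beside 3.67% of all distal regions.

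The tallest distal regions repeated the stretches above. After the SDC1 region came one inside ADAMTSL4, near MCL1, at chr1:150560122-150564186 (84.6 and 68.0 per M), another inside SDC1 (72.6 and 61.8) and one inside BTG4 at chr11:111416784-111418268 (62.7 and 57.8), 37.5 kb from POU2AF1. The remaining 6 of the first 10 lay outside protein-coding genes, near PPIAL4F (54.4 per M), ID2 (53.5), LAPTM4A (52.4), YWHAQ (51.8), HJV (45.8) and POLR3GL (44.4). The BTG4, PPIAL4F and HJV regions lay at or within 22 bp of starts of non-coding genes, namely LOC100132078, LOC105379574 and LINC01719. Relative to the local median height, regions elsewhere also entered the first 10. Examples were those 409 and 124 kb from MEF2C, a B lineage factor (19.8 and 17.9 times the local median). Another, 70.2 kb from CCNL1 (19.8 times), lay at the start of the non-coding gene LINC00881. The PPIAL4F region, by contrast, was only 6.11 times its local median of 8.91 per M. It fell from rank 23 of all shared regions by height to rank 2570 by this ratio.

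Joining distal regions up to 10 kb apart gave 4718 clusters of 2 or more, which held 34.9% of distal regions. Of these, 113 held at least 5 regions and 2 at least 10. The largest by summed height lay between LAPTM4A and SDC1, at chr2:20097625-20167383, with 10 regions over 69.8 kb and a summed height of 245 per M. The next, at chr2:20187220-20215386, overlapped SDC1 (5 regions, 225), and the following one, at chr11:111409160-111455577, overlapped BTG4 and began 29.9 kb from POU2AF1 (7 regions, 187). Ranks 4 to 8 overlapped ADAMTSL4 (112 per M), lay near PPIAL4F (102), YWHAQ (81.0) and ID2 (80.8), or overlapped KIDINS220 (72.1). Relative to the local median height, the PPIAL4F cluster fell from rank 5 to rank 157. By number of regions the first was another one, with 12 regions over CCDC88C at chr14:91348975-91410967, none above 9.28 per M, and a cluster of 8 regions lay over FCRL5, whose start was low.

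The immunoglobulin loci, whose genes plasma cells transcribe most, held no region above 11.6 per M, and their number of regions differed. The heavy chain locus (IGH) had 46 shared regions, the tallest 12.5 and 10.8 per M at chr14:106830662-106831753. The lambda locus (IGL) also had 46, up to 9.72 and 9.36 per M. The kappa locus (IGK) had 5, up to 6.80 and 6.83. These counts come to 35.6 regions per Mb in IGH, 51.3 in IGL and 3.63 in IGK, beside 16.6 over chromosomes 1 to 22, each taken from its first to its last shared region. The tallest of IGH ranked at percentile 94.5 of all shared regions. Segments in these loci resemble each other, so reads may be shared among them or lost.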

How the data were processed

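The data were ATAC-seq peak lists of AMO1 cells, of which the 2 empty vector libraries were analysed. Per the file headers, the authors called peaks in each library separately with MACS2 2.1.2 on paired fragments, without a control library, at q 0.01, keeping duplicate fragments and calling summits. The submitters' processing notes name hg38, Trimmomatic 0.38, bcl2fastq 2.17 and DiffBind. Which aligner was used is not given in the sources used here. Pileup as the authors deposited it is an unscaled coverage signal in fragments, the deposited fold is a ratio to the caller's local background over 10000 bp, and the deposited −log10 q value was used in a stricter alternative only.

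Peaks were merged on overlap of 1 bp in Python 3.11.15 (pandas 2.3.3, numpy 2.4.6, scipy 1.17.1), and pileups were divided by the fragment total in each header, times 1000000. Merging was checked on 800 simulated intervals, and bedtools 2.31.1 gave the same 46460 shared regions on the real lists. Genes and starts came from RefSeq tables on GRCh38.p14; 3 of 349 listed genes (PVT1, HPRT1, C1orf43) could not be used. Named genes were the markers, the 5 tallest and all closed members of each plasma cell list, and up to 4 open and 6 closed members of each other list. Further genes such as CD3D, EPOR, CDH1, MYC and GPRC5D were named after their values were seen. Members and lists were chosen with earlier results of these data known. With 1 library per kind there was no test; intervals are exact Poisson and cover counting error only. Alternatives varied the overlap, q threshold, windows, ranking, gaps and library. A few genes of the lists enter the counts but are not reported here by name.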

Additional observations from a re-analysis of the deposited data

Results flagged for a closer look

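Chromosome X was outside the regions described above, which cover chromosomes 1 to 22. It held 1256 regions with a peak in both libraries, with a median height of 1.68 per M. This is signal in data not otherwise used, and no control sample sets a background for it.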

How the results depend on the processing

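The number of shared regions stayed within 1.5 times the main count with a reciprocal overlap of 50% and at a q of 1e-05, and fell to 23752 when only peaks above the median pileup of each list were kept. The share at gene starts (24.8%) was 23.8% with a window of 500 bp, 26.7% with 2000 bp, 23.5% when the summit had to lie in the window and 26.9% at a q of 1e-05. The share of distal regions (68.2%) was 73.3% beyond 2000 bp, 29.6% beyond 50000 bp, 66.3% at a q of 1e-05 and 63.3% when starts of non-coding genes counted too. Of the 50 tallest regions, 0 were among the first 50 by fold enrichment and 30 relative to the local median. Open genes of other lineages numbered 57 in place of 89 when only regions above the median height counted. They numbered 73 of 232 (31.5%) with a window of 500 bp and 104 (44.8%) with 2000 bp. The counts for plasma cell, housekeeping and all genes stayed within 1.5 times under the 8 alternatives run. With 89 of 92 plasma cell and 23 of 23 housekeeping genes open, those counts could not rise by that factor, only fall. For single lists 111 of 120 alternative counts stayed within 1.5 times, including lists in which every gene was open. Distal clusters numbered 2575 with gaps up to 5000 bp. Of the 8 largest clusters, 1 was among the first 8 by number of regions. Ranking relative to the local median, counting non-coding starts and using either end of every gene were chosen after seeing the data. Motifs in the shared regions themselves were not run, because no genome sequence was used here. No paired analysis was possible because there was 1 library of each kind. Regions only in the IFN-prefixed library had a median of 0.440 per M there, and the empty vector library was sequenced less deeply, so a missing peak in it does not show that a region is closed.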

Other observations

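The 10 regions with the largest fold enrichment in the authors' deposited lists were none of the tallest. They had mean folds of 21.8 to 28.8 and heights of 2.85 to 13.1 per M, and 3 of them lay at gene starts (NOMO3, LOC102724159 and NOTCH2NLB). The first was a distal region inside NSF at chr17:46598340-46599159, enriched 27.5-fold and 30.1-fold at a height of 6.94 per M. Of the 10, 2 lay on chromosome 21, at chr21:5154690-5155100 and chr21:8234121-8235374. These values are given without an explanation.

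Median height differed between chromosomes, from 1.35 per M over 1927 shared regions on chromosome 4 to 2.90 over 2067 on chromosome 19. Chromosomes 1 and 2, which held most of the tallest regions, had medians of 2.03 and 1.73. In steps of 5 Mb the highest median was on chromosome 12 between 55 and 60 Mb, at 4.83 per M over 138 regions, where none of the 100 tallest regions lay.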
